A study of Mus musculus with 2 samples.

Results

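Fos, Fosb, Fosl2, Jun, Junb, Jund, Atf3, Egr1, Egr2 and Egr3 are genes of early response transcription factors, and they are described here in total RNA of the gastrocnemius, the large muscle of the calf. These 10 of 55536 annotated genes were taken by name, and they had been chosen by measured values of these same libraries, in which most of them differed between the replicates. Their ratio between the libraries is therefore given as a description, with no test. The muscle came from male B6CASTF1/J mice, an F1 hybrid of C57BL/6J and CAST/EiJ, which the labels describe as 18 to 20 months old. The series holds 1 group of 2 libraries, called biological replicates 1 and 2, with no treatment, allele or other condition to compare. For each library, 300 ng of RNA was used and spike-in RNAs were added. The labels number the males differently but give both libraries the same donor record, so the spread between the libraries may be between animals or technical.

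AP-1 is a pair of basic leucine zipper proteins, either a Fos protein with a Jun protein or a pair of Jun proteins, that binds DNA and changes transcription. Atf3 encodes a related leucine zipper factor that can pair with Jun proteins and is induced by many kinds of cell stress, and the Egr genes encode zinc finger factors. Many of these genes are immediate early genes, which are transcribed within minutes of a growth factor, stress or, in muscle, contraction or injury signal without new protein synthesis, and whose mRNAs are mostly short-lived.

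Replicate 1 held 40795740 expected counts and replicate 2 held 44919441, where an expected count is the number of reads assigned to a gene after reads that fit several places are shared out. Genes of fast muscle fibres dominated both libraries, with a summed level of 88136 and 65582 TPM (a level per transcript length, scaled to a fixed total per library) over 6 markers. Slow fibre markers summed to 160 TPM in replicate 1 and 1884 TPM in replicate 2, and 6 of 6 were at least 2-fold higher in replicate 2. Hepatocyte genes were also unequal: albumin (Alb) had 1 read in replicate 1 and 756 in replicate 2, and Apob, the main protein of liver lipoproteins, had 0 and 191. The part of these differences in the results below was not tested. A ratio between the libraries always means replicate 2 over replicate 1, from counts scaled with TMM factors after adding 0.5. Over the 14965 genes that averaged at least 10 counts, the median log2 ratio was 0.0053. Replicate 2 was at least 2-fold higher for 5.21% of these genes, and replicate 1 for 2.25%.

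Promoter sequences of the genes are shown because the best known signals to these genes end on short DNA elements next to the start site. RefSeq's table of promoters (build GRCm38.p6) held 8 of the 10 genes by symbol, and 6 of these had a start within 50 bases of the annotated start of their leading transcript. The 130 bases before the start are printed for the 5 of them with the core of the cAMP response element. Capitals mark TGACG, that core (CGTCA where it lies on the opposite strand), the serum response element of Egr2 (CCATATATGG) and the TATA box of Fos (TATAAA). They lie at chr12:85473760-85473889 (plus strand) for Fos, chr7:19310046-19310175 (minus strand) for Fosb, chr8:84978749-84978878 (minus strand) for Junb, chr1:191183334-191183463 (minus strand) for Atf3 and chr10:67537739-67537868 (plus strand) for Egr2.
Fos: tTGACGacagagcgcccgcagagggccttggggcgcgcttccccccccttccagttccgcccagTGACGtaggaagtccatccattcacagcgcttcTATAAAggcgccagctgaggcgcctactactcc
Fosb: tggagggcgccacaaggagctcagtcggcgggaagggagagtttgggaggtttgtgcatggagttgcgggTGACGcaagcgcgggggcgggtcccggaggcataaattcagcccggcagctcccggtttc
Junb: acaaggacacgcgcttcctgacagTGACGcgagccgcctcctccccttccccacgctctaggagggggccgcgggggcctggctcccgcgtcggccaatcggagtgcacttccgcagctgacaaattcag
Atf3: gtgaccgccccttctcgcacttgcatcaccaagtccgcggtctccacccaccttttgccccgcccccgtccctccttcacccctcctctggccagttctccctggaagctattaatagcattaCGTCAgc
Egr2: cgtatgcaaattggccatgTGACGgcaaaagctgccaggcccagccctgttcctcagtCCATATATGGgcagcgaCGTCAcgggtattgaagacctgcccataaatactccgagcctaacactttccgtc
Counting 1 as the base next to the RefSeq start, the core lay 66 to 62 and 129 to 125 bases before the start of Fos and 60 to 56 bases before that of Fosb. In Junb it lay at 106 to 102. In Atf3 it lay on the opposite strand at 7 to 3, inside the last 7 bases of the window, which belong to the first exon in the annotation. Egr2 held it at 111 to 107 and, on the opposite strand, at 55 to 51, with its serum response element between them at 72 to 63.

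A set of 6 motifs were searched on both strands of the 250 bases before each start, and their share was counted over 32851 RefSeq promoters of the same length. The core TGACG was in 5 of the 6 windows and in 17.8% of all promoters. The full cAMP response element TGACGTCA, which contains the core on each strand, was in 0 of 6 (1.55% of all), and the AP-1 site TGANTCA also in 0 of 6 (6.75% of all). The serum response element was in 1 of 6 (1.47% of all), and TATAAA in 1 of 6, the Fos window at 33 to 28 (12.4% of all). The GC box GGGCGG was in 4 of 6 (32.7% of all), with 5 matches before Atf3, of which a pair overlapped. The Jun window held a GC box and no core. It also held tgacatca, a near match to TGACGTCA that a search for exact letters passes over. Elements farther than 250 bases from the start were outside the search, so absence from a window is not absence from the promoter. A match is a stretch of letters and not a measured binding site, and these windows were not tested against the expression values.

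All 10 genes passed the minimum mean count of 10, and 8 of them were at least 2-fold higher in replicate 2, against 5.21% of all genes that passed. At least 2-fold higher in replicate 1 were 0 of the 10, against 2.25% of all. Since the genes had been chosen on this contrast, nothing is read from that count. On the log2 scale their median ratio was 2.04, or 4.12-fold. At 1.5-fold the count was 9, against 11.0% of all genes, and at 4-fold it was 5 (Fos, Fosb, Atf3, Egr1 and Egr3), against 1.45%. With the deposited TPM + 0.5, Fosb and Egr3 were below 4-fold, at log2 ratios of 1.16 and 0.85. Jund, at 2.02-fold, lay just inside the 2-fold limit, and Junb, at 1.69-fold, just outside it. The genes did not move by a common factor, since their ratios ran from 0.827 to 33.2. The summed level of the 10 genes was 50.4 TPM in replicate 1 and 207 TPM in replicate 2 (128.8 ± 110.9 TPM, SD, n = 2).

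**Figure D1:**
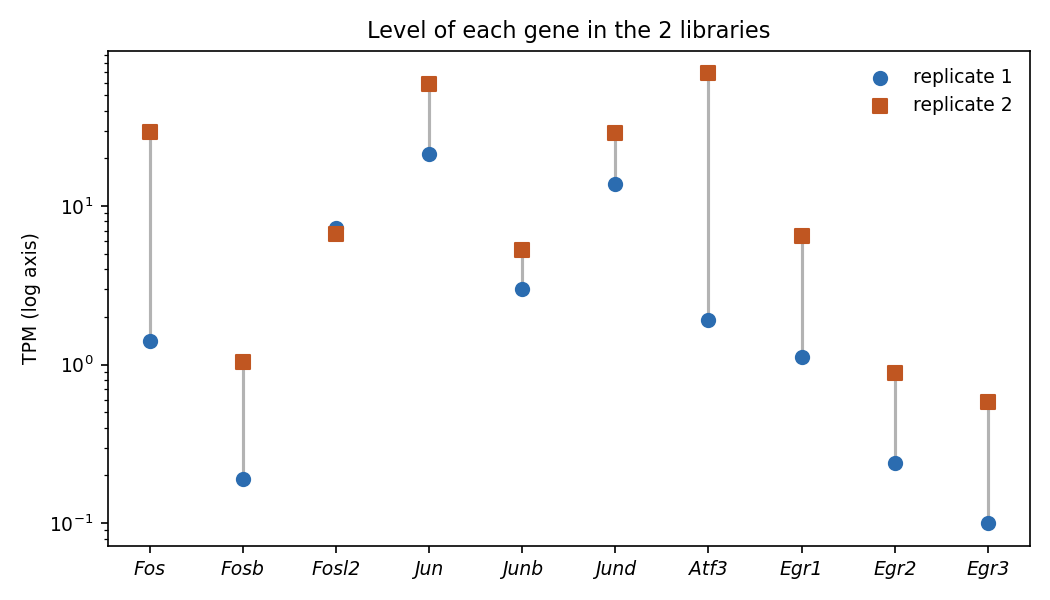
Level of each of the 10 genes in the 2 libraries, in TPM on a log axis, with circles for replicate 1, squares for replicate 2 and a line joining the values of 1 gene. The lines of Atf3 (1.92 to 68.9 TPM) and Fos (1.41 to 29.5 TPM) are the longest, and the symbols of Fosl2 (7.24 and 6.69 TPM) overlap.

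Fos (ENSMUSG00000021250.13, mm10 chromosome 12, 85473890 to 85477273, plus strand) encodes the classic partner of Jun in AP-1. It had 71 reads in replicate 1 and 1758 in replicate 2, which is 1.41 and 29.5 TPM (15.45 ± 19.9 TPM, SD, n = 2). Replicate 2 was 21.7-fold higher, with a 95% counting interval of 17.2 to 28.1. This exact interval, and each one below, covers counting error in the 2 libraries and not the spread between animals. Ranked by TPM over all genes, Fos stood at 10440 in replicate 1 and at 1996 in replicate 2. It was low in replicate 1 and in the upper part of the expressed genes in replicate 2.

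Fosb (ENSMUSG00000003545.3, chromosome 7, 19302696 to 19310051, minus strand), whose protein also pairs with Jun proteins, had 13 and 113 reads, or 0.19 and 1.04 TPM (0.615 ± 0.601 TPM). It was 7.42-fold higher in replicate 2 (interval 4.30 to 14.8), at a level that stayed near 1 TPM. Fosl2 (ENSMUSG00000029135.10, chromosome 5, 32135801 to 32157842, plus strand) encodes Fra-2, a Fos protein without the strong activation domain of Fos. It had 1355 and 1272 reads, or 7.24 and 6.69 TPM (6.97 ± 0.389 TPM), and its ratio was 0.827 (interval 0.765 to 0.893). Fosl2 was thus the exception among the 10 genes, being slightly lower in replicate 2, and its log2 ratio of -0.27 became -0.05 when the libraries were scaled by their spike-in totals.

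The make-up of the Fos family was therefore different in the 2 libraries. Of the summed TPM of Fos, Fosb and Fosl2, which was 8.84 in replicate 1 and 37.2 in replicate 2, Fosl2 held 81.9% in replicate 1 and 18.0% in replicate 2. Fos held 16.0% and 79.2%, and Fosb 2.15% and 2.79%. Replicate 1 was led by Fosl2 and replicate 2 by Fos. The second quantification, which the authors made directly from the same reads, gave Fosl2 82.2% and 17.0%.

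Jun (ENSMUSG00000052684.4, chromosome 4, 95049034 to 95052222, minus strand) encodes the central AP-1 subunit, which pairs with each Fos protein and with itself. In the gene table it had the highest mean level of the 10 genes, with 2085 and 6303 reads, or 21.4 and 59.0 TPM (40.2 ± 26.6 TPM). Replicate 2 was 2.66-fold higher (interval 2.53 to 2.80). Jun was thus well expressed in both libraries, and its rank by TPM was 2575 in replicate 1 and 1019 in replicate 2. Jund (ENSMUSG00000071076.6, chromosome 8, 70698949 to 70700616, plus strand), known as the most constant of the Jun genes, had 683 and 1565 reads, or 13.8 and 28.8 TPM (21.3 ± 10.6 TPM), a ratio of 2.02 (interval 1.84 to 2.21). Junb (ENSMUSG00000052837.6, chromosome 8, 84974484 to 84978718, minus strand), which can counter Jun at AP-1 sites, had 161 and 309 reads, or 2.98 and 5.28 TPM (4.13 ± 1.63 TPM), a ratio of 1.69 (interval 1.39 to 2.06). All 3 Jun genes were higher in replicate 2, by ratios of 1.69 to 2.66 that are below those of Fos and Fosb. With the deposited TPM + 0.5 in place of counts, the log2 ratio of Fosb was 1.16 and that of Jun 1.44, so the order of Fosb and Jun depended on the scale.

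Summed over the 6 AP-1 genes, the level was 47.0 TPM in replicate 1 and 130.3 TPM in replicate 2. Jun kept the same share of that sum, 45.5% and 45.3%. The share of Fos was 3.00% and 22.6%, that of Fosl2 15.4% and 5.13%, and that of Jund 29.4% and 22.1%. Per transcript length, Jun was 15.2 times the level of Fos in replicate 1 and 2.00 times in replicate 2. Jun family mRNA exceeded Fos family mRNA in both libraries, with a Fos to Jun family ratio of 0.232 and 0.400.

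Atf3 (ENSMUSG00000026628.13, chromosome 1, 191170296 to 191218039, minus strand) had the highest ratio of the 10 genes. It had 112 reads in replicate 1 and 4241 in replicate 2, or 1.92 and 68.9 TPM (35.4 ± 47.4 TPM). Replicate 2 was 33.2-fold higher (interval 27.6 to 40.6). Atf3 made up 3.81% of the summed TPM of the 10 genes in replicate 1 and 33.3% in replicate 2, where it was the most abundant of them. It stood at rank 9662 by TPM in replicate 1 and 885 in replicate 2. Set against Fosl2, the member with the smallest spread, the TPM of Atf3 was 0.265 times as high in replicate 1 and 10.3 times as high in replicate 2.

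The Egr genes were low in both libraries and higher in replicate 2. Egr1 (ENSMUSG00000038418.7, chromosome 18, 34859823 to 34864984, plus strand), the main early growth response factor, had 113 and 696 reads, or 1.12 and 6.44 TPM (3.78 ± 3.76 TPM), a ratio of 5.41 (interval 4.44 to 6.68). Egr2 (ENSMUSG00000037868.15, chromosome 10, 67535475 to 67542188, plus strand), which is also the myelin factor of Schwann cells, had 14 and 51 reads, or 0.24 and 0.88 TPM (0.56 ± 0.453 TPM), a ratio of 3.14 (interval 1.75 to 6.28). Egr3 (ENSMUSG00000033730.4, chromosome 14, 70077203 to 70082614, plus strand), known in muscle for its role in the muscle spindle, had 7 and 56 reads, or 0.10 and 0.58 TPM (0.34 ± 0.339 TPM), a ratio of 6.67 (interval 3.20 to 18.3). Egr2 and Egr3 rest on few reads, and on the log scale their intervals are the widest of the 10. Egr1 held 76.7% of the summed Egr level of 1.46 TPM in replicate 1 and 81.5% of 7.90 TPM in replicate 2, so the make-up of this family differed little.

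**Figure D2:**
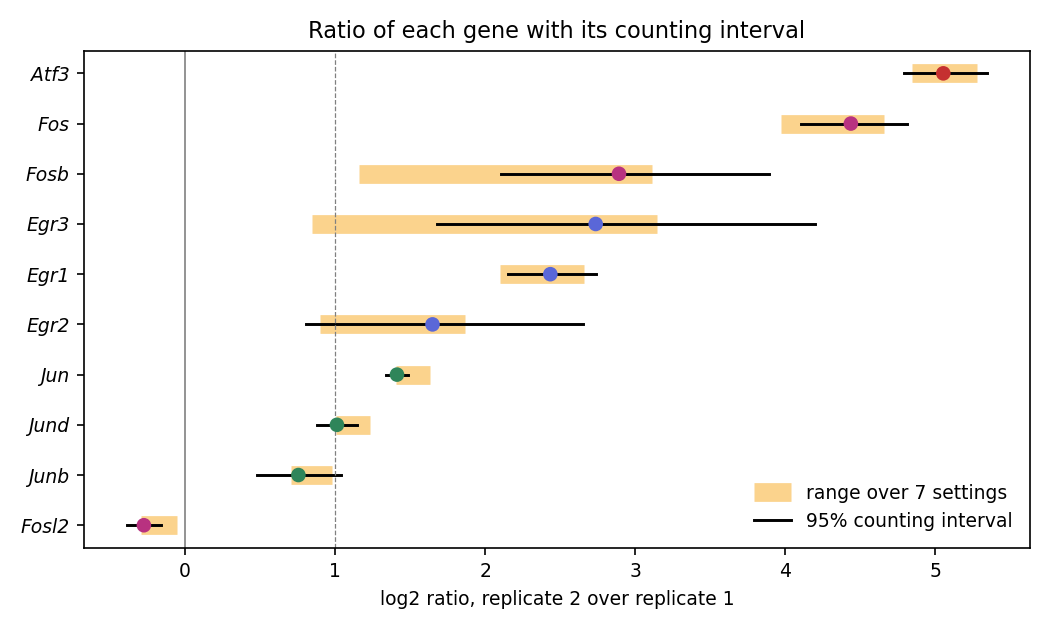
Log2 ratio of replicate 2 over replicate 1 for each gene (points), its 95% counting interval (black lines) and the range of the ratio over 7 ways of scaling or counting (bars), with a dashed line at 2-fold. Atf3 (5.05) and Fos (4.44) lie farthest from 0, Fosl2 (-0.27) lies below it, and Egr3 and Fosb have the widest bars.

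The counting interval lay above 1 for 9 of the 10 genes and above 2 for 6 of them. This was not counted over all genes, and the 10 had been chosen on this ratio, so nothing is read from it. By mean TPM the order was Jun, Atf3, Jund, Fos, Fosl2, Junb, Egr1, Fosb, Egr2 and Egr3. Neighbours in that order had overlapping values in the 2 libraries at every step except at Fosl2 and Junb (6.69 to 7.24 TPM against 2.98 to 5.28 TPM) and at Egr1 and Fosb (1.12 to 6.44 TPM against 0.19 to 1.04 TPM). Within each library Egr2 was also above Egr3 (0.24 against 0.10 TPM in replicate 1 and 0.88 against 0.58 TPM in replicate 2), though on few reads. The order is therefore mostly not fixed by these data. In the second quantification Atf3 had 4.05 and 134.5 TPM, Fos 2.06 and 45.1 TPM, and Jun 27.8 and 72.9 TPM, with Atf3 again the most abundant of the 10 in replicate 2. Its mean there was above that of Jun, so the first place in the order depended on the quantification. Of these 134.5 TPM of Atf3 in replicate 2, 56.1 TPM were on the short non-coding transcript Atf3-202, from 320 of 4332 reads.

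Among all 14965 genes tested, Atf3 had rank 47 by its ratio, Fos 54, Fosb 103, Egr3 117, Egr1 143, Egr2 311, Jun 410, Jund 765, Junb 1211 and Fosl2 12314. Many of the genes ranked above them have few reads. Among the 11013 protein-coding genes that averaged at least 50 counts, Atf3 stood at rank 4 and Fos at rank 6. Ranks 1 to 3 were held by the liver genes Alb and Apob and the predicted gene Gm28635 (0 and 151 reads), whose near absence from replicate 1 sets them apart from Atf3 and Fos. The genes nearest to Atf3 and Fos in ratio began with Csrp3, a protein of the muscle Z-disc and nucleus, with 142 and 4571 reads at rank 5. Ranks 7 to 10 were held by Tbx1, a T-box factor (11 and 225 reads), Myl2, the slow and cardiac regulatory light chain (611 and 10009 reads), Cyfip2, an actin regulator (65 and 1050 reads), and Myom3, a protein of the sarcomere's M-band (343 and 5427 reads). A likeness over 2 libraries is a likeness of 1 ratio.

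**Figure D3:**
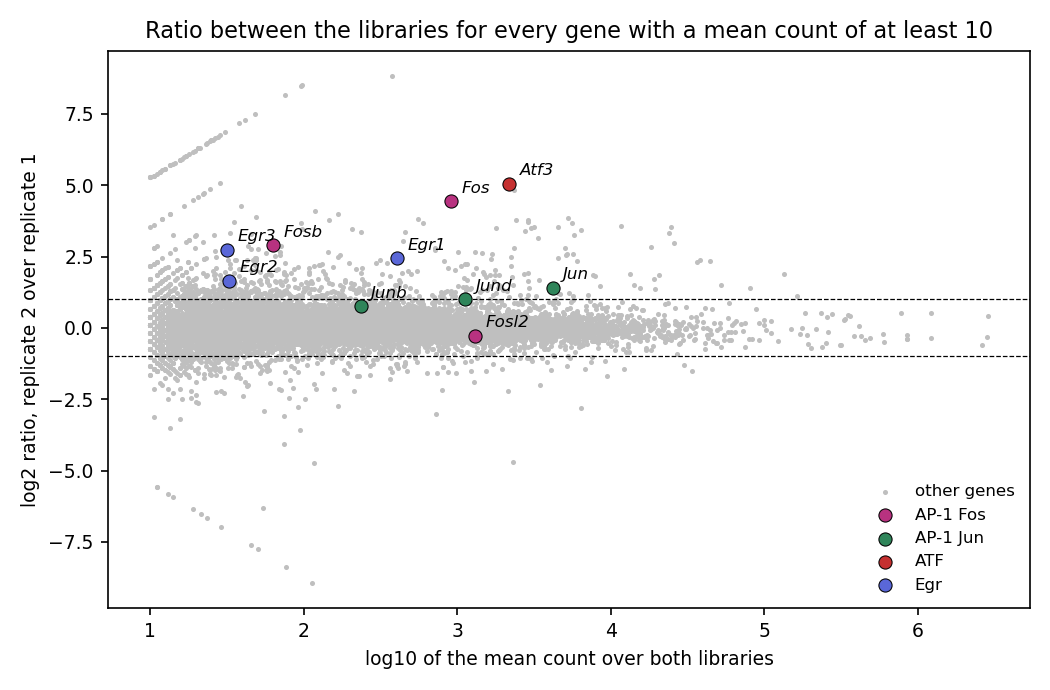
Log2 ratio of replicate 2 over replicate 1 (vertical axis) against the log10 mean count (horizontal axis) for the 14965 genes that averaged at least 10 counts, with the 10 genes in colour by family and dashed lines at 2-fold in each direction. Atf3 and Fos stand at the upper edge of the genes of similar count, and Fosl2 and Junb lie between the lines.

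Transcript tables divide each gene's reads over its annotated transcripts, in a first quantification from a transcriptome alignment and a second made directly from the reads. Jun and Jund have 1 annotated transcript each, a single exon, so their values hold no such division. Fos reads went mostly to the coding transcript Fos-201, with 86.3% in replicate 1 and 92.9% in replicate 2 in the first quantification and 74.5% and 81.9% in the second. Fosl2-201, the coding transcript of Fosl2, took 95.2% and 91.9% in the first and 91.6% and 87.1% in the second. The leading coding transcript of these genes thus held most reads in both libraries. By TPM, which weights short transcripts more, Fos-201 held 68.5% and 79.7% of the gene in the first quantification and 44.7% and 51.3% in the second, where the non-coding Fos transcripts held 55.3% and 48.7%.

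Atf3 has 2 coding transcripts that start 34699 bases apart and encode the same protein of 181 residues. Atf3-201, to whose start the printed promoter belongs, took 62.5 reads in replicate 1 and 3394 in replicate 2, and Atf3-203, with the upstream start, took 49.5 and 785. In the second quantification Atf3-201 took 104.6 and 3144 reads and Atf3-203 took 0 and 868. Both quantifications gave most Atf3 reads of replicate 2 to Atf3-201, 80.0% in the first and 72.6% in the second. For replicate 1 they differed, with 55.8% and 92.6%, over 112 and 113 reads. The short non-coding Atf3-202 of 517 nt took 41.7% of the gene's TPM in replicate 2 in the second quantification and 6.22% in the first.

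Fosb transcripts encode proteins of different length. Fosb-201 encodes 338 residues, and Fosb-206 encodes 237 residues that are the same as the first 237 of Fosb-201, the shape of the truncated form known as ΔFosB. Fosb-201 took 0 reads in replicate 1 and 57.5 in replicate 2 in the first quantification, and 0 and 95.6 in the second. Fosb-206 took 2.96 and 5.97 reads in the first and 2.31 and 12.1 in the second. Fosb-207 took 28.6 reads of replicate 2 in the first quantification and 0 in the second, so the division of so few reads depended on the method. For Egr1, the 2 transcripts encode the same protein of 533 residues, and Egr1-202 took 75.0% and 81.7% of reads in the first quantification and 66.6% and 70.9% in the second.

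**Figure D4:**
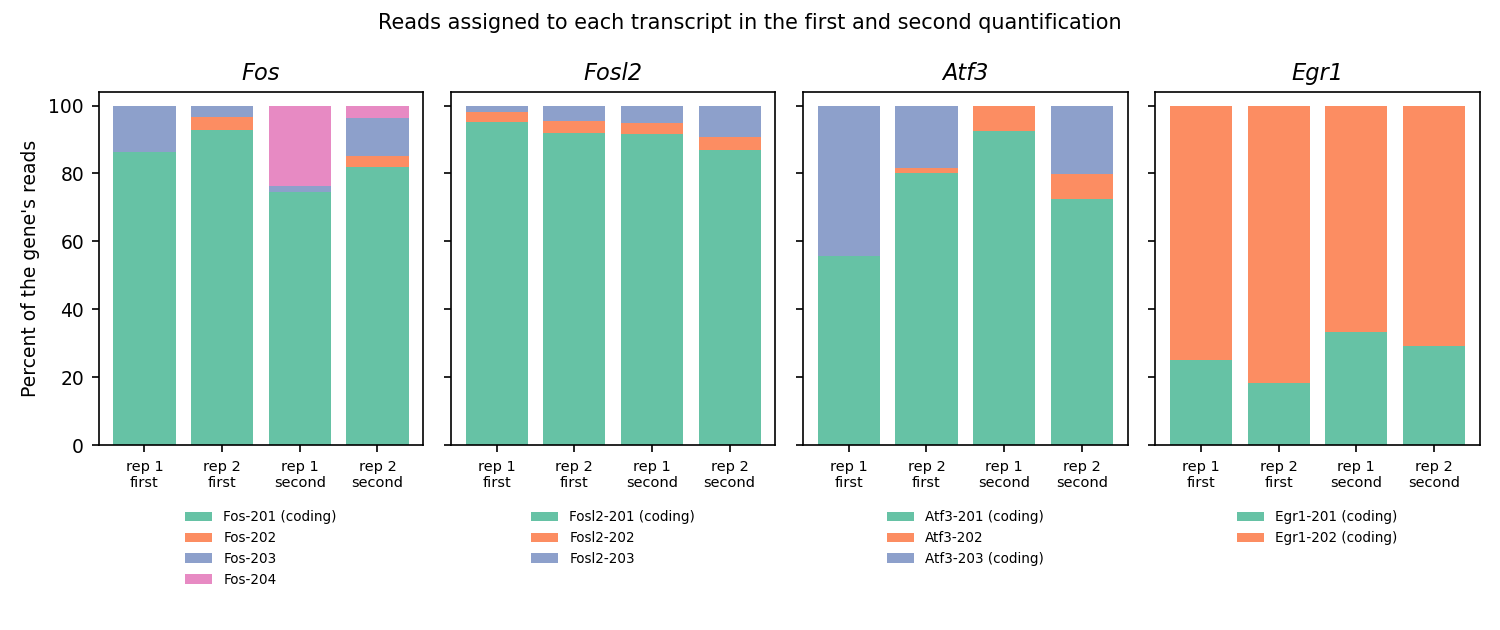
Percent of each gene's reads assigned to each annotated transcript of Fos, Fosl2, Atf3 and Egr1 (stacked bars), for replicates 1 and 2 in the first and the second quantification. Fos-201 and Fosl2-201 hold most of their gene's reads in every bar, and the share of Atf3-201 in replicate 1 differs between the quantifications (55.8% and 92.6%).

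Some of these genes overlap others on the opposite strand, and whether the counting used strand is not given in the sources used here. Jun overlaps the antisense gene Junos over 689 nt, which had 39 and 73 reads against 2085 and 6303 for Jun. Junb overlaps Prdx2, a peroxiredoxin gene, over 351 nt, and Prdx2 had 1816 and 2670 reads, more than Junb, with a ratio of 1.29. The antisense gene Gm11175 overlaps Jund over 919 nt and had 17 and 14 reads. Junb is thus the gene with the most abundant overlapping neighbour. In the first quantification Junb-201 (84976910 to 84978718) took 161 and 308 of its reads, and the non-coding Junb-202 (84974484 to 84976542) took 0 and 1. Which of these transcripts the 351 nt touch was not tested.

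The other genes of these pathways are described from 9 lists, by how many were at least 2-fold higher in either library. The shares over all genes, 5.21% higher in replicate 2 and 2.25% higher in replicate 1, are the background of each count, and a list of this size holds few genes past 2-fold at those shares. Of 26 tested genes of the MAP kinase cascade, 0 were past 2-fold in either direction (median log2 ratio -0.14), and Mapkapk2, a kinase below p38, had 73.5 and 105.5 TPM and Map2k2, which activates the ERK kinases, 85.6 and 79.6 TPM. Of 20 factors that act on early gene promoters, 0 were past 2-fold (median -0.05). The most abundant were Mef2c, with 178.7 and 222.4 TPM, and Mef2d, with 75.3 and 82.8 TPM, both activators of muscle genes. Srf, which binds the serum response element, had 36.5 and 36.8 TPM, and Creb1, which binds the cAMP response element, 9.91 and 8.54 TPM, both named here after their values were seen. The activity of these proteins was not measured.

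Of 19 other basic leucine zipper genes, 3 were past 2-fold in replicate 2 and 2 in replicate 1 (median log2 ratio 0.05). Maff (2.86-fold) and Mafk (2.45-fold), small Maf proteins, and Ddit3 (2.32-fold), which encodes CHOP, were higher in replicate 2. Cebpd, a C/EBP factor, was 2.91-fold higher in replicate 1. The most abundant others were Nfe2l1, with 156 and 240.5 TPM, and Maf, with 103 and 61.0 TPM. Fosl1, the Fos gene that is no member of the 10, had 1 and 4 reads. Of the Egr relatives, Egr4 and Wt1 had 0 reads in both libraries in the gene table, while the second quantification gave Wt1 0.062 and 0.079 TPM. The Egr corepressors Nab1 (3.34 and 4.12 TPM) and Nab2 (1.25 and 1.47 TPM) were within 2-fold. This list's median over its 2 tested genes was 0.33.

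Other immediate early genes were mixed. Of 26 tested, 9 were past 2-fold in replicate 2 and 2 in replicate 1, with a median log2 ratio of 0.64. Ccn1, a secreted matrix protein, had 446 and 5909 reads (11.7-fold), and Csrnp1, a nuclear factor (4.03-fold), and Ier5, an early response gene (3.98-fold), followed. Gadd45g, a growth arrest gene, was 3.70-fold higher in replicate 1, as was the clock gene Per1 at 2.09-fold. Nr4a1, the orphan receptor that is often induced with Fos in muscle, had 82.8 and 98.8 TPM, and Nfil3 had 41.0 and 37.2 TPM. Of the other Nr4a genes on the list, Nr4a3 was 3.64-fold and Nr4a2 1.81-fold higher in replicate 2. A high ratio was therefore not shared by every immediate early gene.

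Genes that shut the early response off also went both ways. Of 18 genes of feedback and mRNA decay, 3 were past 2-fold in replicate 2 and 2 in replicate 1 (median 0.32). Ppp1r15a, a phosphatase subunit of the stress response (2.77-fold), and the MAP kinase phosphatases Dusp1 (2.48-fold) and Dusp4 (2.17-fold) were higher in replicate 2. Tob2 (2.74-fold), and Zfp36 (2.28-fold), whose protein promotes decay of AU-rich mRNAs, were higher in replicate 1. Tob1 had 108.9 and 90.7 TPM and Dusp8 11.6 and 17.4 TPM.

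Atf3 is also a target of the integrated stress response, the pathway through Atf4. Of 19 tested genes of that list, 3 were past 2-fold in replicate 2 and 0 in replicate 1 (median 0.31). These were Chac1, which breaks down glutathione, with 577 and 2419 reads (3.69-fold), and Ppp1r15a and Ddit3, which other lists also hold. Atf4 itself had 65.4 and 69.6 TPM and the chaperone Hspa5 71.1 and 89.7 TPM. Atf3's 33.2-fold ratio was larger than that of any gene on this list. Since Atf3 had been chosen on this ratio, nothing is read from that difference.

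Later targets of AP-1 and Egr factors were mostly low. Of 20 listed genes, 10 had a mean count of at least 10, of which 2 were past 2-fold in replicate 2 and 1 in replicate 1 (median 0.42). Vegfa, the vascular growth factor, had 2691 and 6167 reads (2.02-fold). Mmp9, a matrix protease, was 2.56-fold higher in replicate 1. Hbegf had 6.23 and 5.32 TPM and Ccnd1 2.05 and 3.84 TPM. In the gene table Cxcl1, Fgf21 and Areg had 0 reads in both libraries, and the cytokine Il6 had 0 and 1. The second quantification gave Cxcl1 0.024 and 0.052 TPM.

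Muscle genes known to respond to load or stretch had the highest median of the 9 lists. The lists were chosen with earlier results of these data known, so nothing is read from this order. Of 12 tested, 10 were past 2-fold in replicate 2 and 0 in replicate 1, with a median log2 ratio of 2.49, beside 2.04 for the 10 early genes and 0.0053 for all genes. Csrp3 had 5.50 and 162.4 TPM (28.3-fold), Ankrd2, a titin-binding ankyrin repeat protein, 11.3 and 152 TPM (12.9-fold), Xirp1, an actin-binding protein of muscle repair sites, 21.1 and 248.6 TPM (11.6-fold) and Ankrd1 1.22 and 13.3 TPM (10.4-fold). The chaperone genes of the list ranged from Hspb1 (109.7 and 203 TPM) and Bag3 (45.4 and 92.4 TPM), both within 2-fold, to Cryab (2.84-fold), Hspa1b (4.53-fold) and Hspa1a (6.97-fold). Csrp3 and Ankrd2 are also expressed more in slow than in fast fibres, and the slow fibre markers were higher in replicate 2 as well. The part of fibre type in the ratios of this list was not tested.

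**Figure D5:**
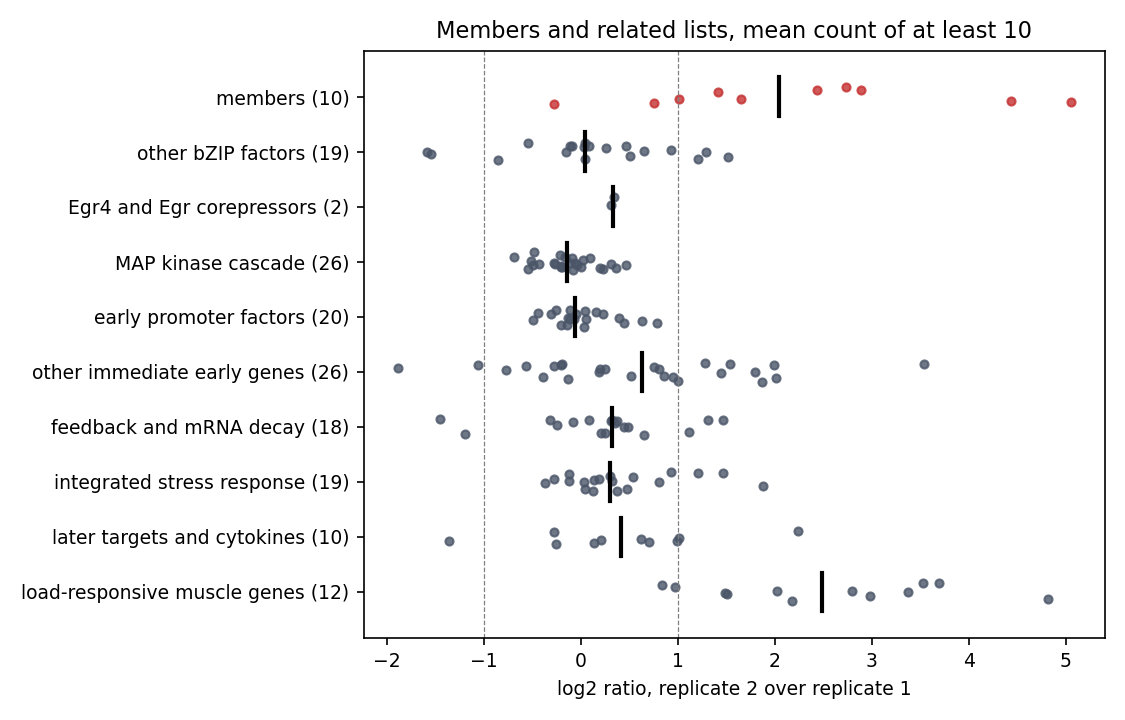
Log2 ratio of replicate 2 over replicate 1 for the 10 early genes (top row) and the 9 related lists, for genes that averaged at least 10 counts, whose number stands in brackets. Points are genes, black bars medians and dashed lines 2-fold in each direction, and the medians of the early genes (2.04) and the load-responsive genes (2.49) lie to the right of those of the other lists.

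Markers of the cell types that a piece of muscle can hold were measured beside these genes, and in tissue RNA fewer cells of a type and less RNA per cell cannot be told apart. Slow fibre genes had 160 and 1884 TPM, led by Myl2 (14.4-fold) and Tnni1 (13.9-fold). Endothelial markers summed to 42.1 and 61.5 TPM, with Kdr and Cldn5 past 2-fold in replicate 2, smooth muscle and pericyte markers to 95.6 and 132 TPM, with Cnn1 past 2-fold, and Schwann cell markers to 19.9 and 28.5 TPM, with Sox10 and Prx past 2-fold. Adipocyte markers summed to 19.4 and 34.0 TPM, with Adipoq and Lep past 2-fold. Fibroblast (256.5 and 243 TPM), macrophage (15.4 and 17.1 TPM), satellite cell (2.31 and 3.11 TPM), erythrocyte (369 and 482 TPM) and tendon markers (65.0 and 94.5 TPM) held no gene past 2-fold.

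Markers of white blood cells other than macrophages were low. Neutrophil and mast cell markers summed to 3.27 and 5.43 TPM, with the mast cell gene Mcpt4 past 2-fold and the neutrophil genes S100a9 and Ly6g at 0 in both libraries. Lymphocyte markers summed to 0.32 and 0.10 TPM, with Cd3d at 0 in the gene table and at 0.204 and 0.175 TPM in the second quantification. The list of 14 hepatocyte genes, added after the albumin reads were seen, summed to 10.7 and 38.1 TPM, and 10 of its 12 tested genes were past 2-fold in replicate 2. Ttr and Fga had 0 reads in replicate 1 and 57 and 46 in replicate 2, while Cyp2e1 (147 and 302 reads) and Hp (290 and 515 reads) were present in both. The part of the slow fibre and hepatocyte differences in those of the early genes was not tested.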

How the data were processed

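Total RNA-seq of the gastrocnemius was taken as deposited for 2 libraries of 1 group, quantified on assembly mm10 with GENCODE M21, per the labels and the file lists. The program that aligned or quantified the reads was not given in the sources used here. Expected counts in the gene table and in the first of 2 transcript tables were deposited as reads assigned to each gene or transcript after alignment to the transcriptome, and the second transcript table's estimated counts come straight from the reads, per the file headers and file lists. Deposited TPM values are divided by effective length and scaled by the authors to a fixed total per library. The deposited percent of isoform use gives, for each transcript, its part of the gene's TPM. Replicate 1 held 40795740 and replicate 2 held 44919441 expected counts, and the second quantification 39867081 and 43967795 estimated counts.

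Expected counts were rounded, scaled with edgeR 4.0.16 (TMM, R 4.3.3), and 0.5 was added before the ratio was taken over the 14965 genes that averaged at least 10 counts. Genes at 2-fold or more were counted as past the fold. With 1 group and 2 libraries no test was run and no p-value is given. Exact Clopper-Pearson intervals (95%) of each gene's share of reads were turned into ratio intervals, which leave out the added 0.5 and cover counting error only. The calculation was tested on simulated data. Alternatives were library totals, DESeq2 1.42.0 size factors, spike-in totals over 96 spike-ins, an added count of 5, TPM + 0.5, the second quantification, other minimum counts and other folds. Promoters and motifs come from RefSeq's table for build GRCm38.p6. Symbols came from the second transcript table, which matched 55450 of 55536 genes.

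The 10 genes and the gene lists were chosen with earlier results of these data known. Named are the 10 genes. Of each pathway list, up to 4 genes with the largest ratio past 2-fold and the 2 most abundant others are named, and the 10 protein-coding genes with the highest ratio at a mean count of at least 50. Of each marker list the summed TPM and the genes past 2-fold are given, and for slow fibre and hepatocyte genes examples of these. Srf, Creb1, Fosl1, Egr4, Wt1, Nr4a2, Nr4a3, Dusp4, Per1, Cryab, Hspa1a, Hspa1b, Cxcl1, Fgf21, Areg and Il6 were named after their values were seen. Some genes that this rule takes are counted in their lists but not reported by name.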

Additional observations from a re-analysis of the deposited data

How the results depend on the processing

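The count of 8 of the 10 genes past 2-fold held with library totals, DESeq2 size factors, spike-in totals, an added count of 5, the second quantification and no minimum count. With the deposited TPM + 0.5 it was 6, with Egr2 (log2 ratio 0.90) and Egr3 (0.85) no longer past 2-fold and Fosb at 1.16, and the median log2 ratio was 1.10, since the added 0.5 is large beside levels under 1 TPM. With a minimum mean count of 100, 7 of the genes were left, of which 5 were past 2-fold, with a median of 1.41. At 4-fold the count was 5, and at 1.5-fold it was 9. Of all genes tested, 16.6% were at least 2-fold higher in replicate 2 with no minimum count and 2.65% with a minimum of 100. Spike-in totals raised the median log2 ratio of all genes to 0.23, Junb to 0.98 and Fosl2 to -0.05, and no gene of the 10 changed direction in any setting run. The summed TPM was 207 without replicate 1 and 50.4 without replicate 2, and a ratio cannot be computed from 1 library. No paired analysis was possible because the series has 1 group. The reads of Fosb, Egr2 and Egr3 in replicate 1 (13, 14 and 7) limit what can be said of their size of difference and of their transcripts.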
